A study of Mus musculus with 11 samples.

Results

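The Eph receptors and ephrins described here were the 9 genes Epha4, Epha7, Ephb2, Ephb3, Ephb4, Efna1, Efna5, Efnb1 and Efnb2, taken by symbol from tables of single-cell expression in the mouse cochlear duct. All 9, 5 receptors and 4 ephrins, had a row in the tables of all 4 ages, out of 24898 genes listed in any table and 18667 listed in all 4. The cells came from wild-type CD1 mice with no treatment: 2 libraries at embryonic day 14 (E14), 3 at E16, 4 at postnatal day 1 (P1) and 2 at P7. Each library was 1 dissection of pooled littermates of either sex, dissociated with enzymes and captured in droplets, so the spread between libraries was a spread between pools and not between animals. Ages were collected separately, and age and collection cannot be told apart. The 11 libraries held 30634 cells, with 1247 to 5598 cells and a median of 2478 to 5647.5 unique molecular identifiers (UMIs, counts of captured transcripts) per cell. No pair of libraries shared more than 36 cell barcodes, and those were at most 0.958% of the smaller library.

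Eph receptors are receptor tyrosine kinases, and their ligands, the ephrins, are held at the surface of the neighbouring cell. A-class ephrins (Efna genes) are tethered by a lipid anchor and B-class ephrins (Efnb genes) cross the membrane; most receptors prefer ligands of their own class, and EphA4 also binds B-class ephrins. Contact sends a signal into both cells, and it often ends in repulsion. Such signalling is known for setting boundaries between tissue compartments and for guiding axons, and in the cochlea for guiding spiral ganglion neurites to the hair cells.

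The tables carried no cell type names, so cells were clustered and each cluster was named from marker genes. The 9 genes, the other Eph and ephrin genes and a list of 32 genes of Eph signalling took no part in the clustering or the naming. The names used below therefore stand for clusters like the named type: inner and outer hair cells (IHC, OHC; together HC), pillar and Deiters' cells (PDC), inner phalangeal cells (IPhC), lateral prosensory cells (LPsC, the embryonic progenitors on the outer side), Kölliker's organ (KO, the transient epithelium medial to the hair cells, with a medial and a lateral part), interdental cells (IdC, at its medial edge) and the lesser epithelial ridge (LER, the epithelium lateral to the organ of Corti, here Hensen's cells, HeC, with Claudius and outer sulcus cells, CC/OSC). The make-up of a class was not the same at each age: the 760 LER cells of E14 all scored as CC/OSC, against 688 of 784 at E16 and 155 of 399 at P1, KO was medial in 990 and lateral in 278 of its 1772 cells at E14, medial in 2877 of 3478 with no cluster named lateral at E16, medial in 5629 and lateral in 1813 of 8464 at P1, and lateral in 544 of 1613 with no cluster named medial at P7, and the 63 HC of E14 were 1 cluster that scored as IHC, while OHC were 466 of 601 HC at E16, 820 of 998 at P1 and 146 of 228 at P7. The KO class held 2 clusters led by cell cycle genes at E14, 504 cells. It also held 1 cluster with haemoglobin genes first among its top 10 at E16 (601 cells) and at P1 (1001 cells, scored as lateral). No KO marker was among the top 10 genes of 3 of the 6 KO clusters at E14, 1 of 5 at E16 and 4 of 12 at P1. At P7 this held for 7 of 8. These clusters, which were named by their scores, included every cluster named lateral KO. Only those with cell cycle or haemoglobin genes were left out in the alternative run that follows. Each comparison with KO was also run without the cell cycle and haemoglobin clusters, a setting chosen after seeing the data, and the member calls that then changed are given beside each result. At P1 there were 998 HC, 974 PDC, 8464 KO cells, 561 IdC and 399 LER cells. The P1 HC held 20580.2 to 26434.7 CPM (UMIs per 1000000) of 12 hair cell markers summed, against 164 to 271 CPM in KO. From 15% to 36.6% of the cells of a library, 6331 cells in all, fell in clusters that no marker list named and entered no comparison. Single cells were also gated by marker scores averaged over their neighbours in the graph used for clustering, a check not independent of the clusters. By that gate 79.5% of the P1 OHC but only 49.4% of the P1 IHC kept their name. A level is the mean over the cells of a class of their CPM in 1 library, and a difference is a log2 fold change of CPM + 10. It was fitted with limma over every gene whose average level reached 10 CPM, and a gene was called where the p adjusted by Benjamini-Hochberg was under 0.05. The average was taken over all values in a fit, so a gene could reach this filter through 1 class alone. That weakens the counts of called members. In 10x data a level follows the counts of transcript ends and is not divided by transcript length.

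Epha4 and Efna5 were the members that were higher in hair cells than in their supporting cells at P1, and the sequences upstream of their annotated starts are shown for that reason. Epha4 lies on the minus strand at chr1:77367185-77515088 and Efna5 on the minus strand at chr17:62604184-62881317 (mm10). Each line gives the 250 bases before the start in RefSeq on GRCm38.p6, 5′ to 3′ in the direction of transcription; capitals mark GGGCGG and CCAAT on either strand, so that they read CCGCCC and ATTGG where the motif is on the other strand, and no 2 matches overlap.
Epha4 (chr1:77515089-77515338): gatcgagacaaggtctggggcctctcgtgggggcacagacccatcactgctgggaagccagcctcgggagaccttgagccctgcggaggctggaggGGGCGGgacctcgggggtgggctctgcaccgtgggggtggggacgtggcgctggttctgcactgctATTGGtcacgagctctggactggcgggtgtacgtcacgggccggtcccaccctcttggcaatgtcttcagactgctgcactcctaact
Efna5 (chr17:62881318-62881567): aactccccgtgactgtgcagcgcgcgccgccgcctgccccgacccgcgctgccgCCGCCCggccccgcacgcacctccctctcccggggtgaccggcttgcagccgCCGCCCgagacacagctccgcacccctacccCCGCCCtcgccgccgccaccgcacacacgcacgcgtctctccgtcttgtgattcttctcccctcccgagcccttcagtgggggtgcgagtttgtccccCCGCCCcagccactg
The Epha4 window had 1 GGGCGG, 1 CCAAT, 14 CG dinucleotides and a GC content of 66.0%. The Efna5 window had 4 GGGCGG, no CCAAT, 32 CG dinucleotides and a GC content of 74.8%. Neither window held TATAAA or CAGCTG on either strand. Over the 32851 windows of the same length in the RefSeq table the median GC content was 52.4%, and 32.7% held GGGCGG, 33.8% CCAAT, 12.4% TATAAA and 13% CAGCTG. The other members lie at chr4:28813131-28967499 (Epha7, plus strand), chr4:136647539-136835988 (Ephb2, minus), chr16:21204755-21223305 (Ephb3, plus), chr5:137350109-137378669 (Ephb4, plus), chr3:89271733-89281142 (Efna1, minus), chrX:99136130-99148991 (Efnb1, plus) and chr8:8617434-8661242 (Efnb2, minus); all 9 are protein-coding genes.

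The P1 duct showed 4 patterns among the 9 genes. Epha4 was highest in both kinds of hair cell, Efna5 in OHC but not in IHC, Epha7 in KO and IdC, and Efna1 everywhere in the duct epithelium except the hair cells. Efnb2 stood at 45.3 to 62.5 CPM on average in P1 OPC/DC (outer pillar and Deiters' cells), inner pillar cells (IPC), HeC and CC/OSC and at 9.73 to 24.4 CPM in the other classes. Ephb2, Ephb3, Ephb4 and Efnb1 stayed at or under a mean of 40.1 CPM in every class.

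**Figure D1:**
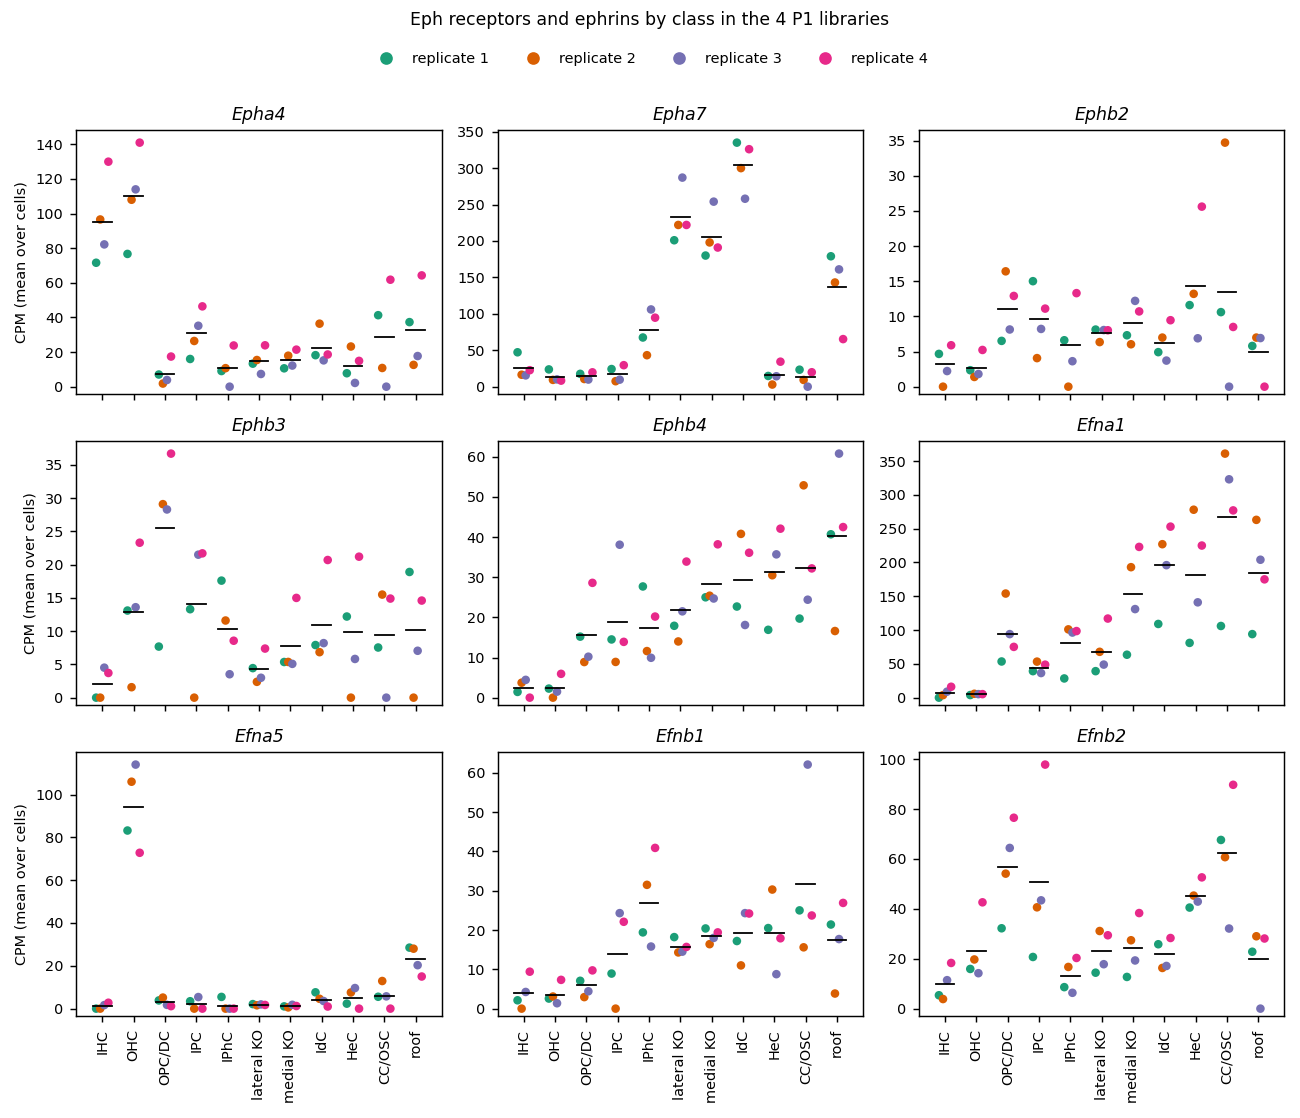
Levels (CPM, mean over the cells of a class, linear axis) of the 9 members in 11 classes of the 4 P1 libraries; 1 point is 1 library, coloured by replicate, and the line is the mean. Efna5 sits at 72.8 to 114 CPM in OHC and at 0 to 2.75 CPM in IHC, and Epha7 at 180 to 335 CPM in lateral KO, medial KO and IdC.

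Hair cells against pillar and Deiters' cells, P1. Epha4, a receptor that can bind ephrins of both classes, was at 75.6, 106, 107 and 140 CPM in the HC of replicates 1 to 4 and at 9.06, 7.71, 8.90 and 22.5 CPM in PDC. The groups did not overlap, and even the lowest HC library was far above the highest PDC library. The log2 fold change was 2.43 ± 0.16 (SE, limma adjusted p = 2.68e-08). Efna5, a lipid-anchored ligand of EphA receptors, was at 64.5, 83.7, 91.6 and 63.5 CPM in HC and at 3.74, 3.92, 2.35 and 0.946 CPM in PDC. It again separated the classes in every library, with a log2 fold change of 2.74 ± 0.16 (limma adjusted p = 1.26e-08).

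Efna1, Efnb2 and Ephb3 were lower in HC. Efna1, the A-class ligand first known as a gene induced by tumour necrosis factor, was at 2.97, 5.32, 5.94 and 6.65 CPM in HC and at 50.2, 130, 84.7 and 70.5 CPM in PDC, a log2 fold change of -2.56 ± 0.19 (limma adjusted p = 7.51e-08). Efnb2, a transmembrane ligand, was at 13.5, 16.4, 13.6 and 39.3 CPM in HC and at 29.6, 50.8, 61.0 and 80.3 CPM in PDC, a log2 fold change of -1.10 ± 0.17 (limma adjusted p = 9.89e-05). For Efnb2 the highest HC library, replicate 4, exceeded the lowest PDC library, replicate 1, but each library had less in HC than in PDC. Ephb3, a B-class receptor, was at 10.1, 1.25, 11.8 and 20.7 CPM in HC and at 8.95, 22.1, 27.2 and 34.0 CPM in PDC. Its groups overlapped, replicate 1 went the other way, and its difference of -0.68 ± 0.23 (limma adjusted p = 0.0188) did not pass without replicate 2 (limma adjusted p = 0.14) or replicate 3 (0.0689), without the filter (0.0808) or without the library block (0.111). Epha7 did not pass, at -0.01 ± 0.19 (limma adjusted p = 0.962), with 29.0, 10.8, 11.1 and 10.2 CPM in HC. Of the 6 members that reached the filter on low levels, 5 were thus called, against 61.0% of all 9179 genes tested, and at that background the count of calls says little about the members. Ephb2, Ephb4 and Efnb1 were under the filter.

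Of all 9179 genes 3036 were higher and 2560 lower in HC. Of the 13 other Eph and ephrin genes 7 were tested, 1 was higher and 6 were lower, with a median of -1.05 against 0.06 over all genes. The drops with the greatest size were Efna4 at -3.11 ± 0.23 (limma adjusted p = 8.68e-08), Ephb6, a receptor without kinase activity, at -2.31 ± 0.16 (adjusted p = 5.67e-08) and Ephb1 at -1.19 ± 0.15 (adjusted p = 1.61e-05). Of the 32 signalling genes, 22 were tested, 5 were higher and 14 were lower in HC. Sipa1l1, which acts on Rap GTPases downstream of EphA4, was at -2.63 ± 0.12 (limma adjusted p = 1.05e-09), and Anks1, an adaptor that binds Eph receptors, was at 1.02 ± 0.17 (limma adjusted p = 0.000161).

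Inner against outer hair cells. At P1 Efna5 was at 83.2, 106, 114 and 72.8 CPM in the OHC of replicates 1 to 4 and at 0, 0, 1.65 and 2.75 CPM in IHC. Every OHC library was far above every IHC library, and the 178 IHC held 2 Efna5 UMIs in all where the 820 OHC held 480. The pooled rate was 57.1 times higher in OHC (exact 95% interval of the counts 15.7 to 473), and the fitted difference, IHC minus OHC, was -3.22 ± 0.25 (limma adjusted p = 3.57e-17). The size of the fitted value depends on the 10 CPM that were added. Efna5 in IHC was at 0 to 3.77% of its OHC level in the same library, under the 14.3 to 25% at which the summed OHC marker list stood there. Among cells thinned to 1500 UMIs, 93 of 820 OHC (11.3%, exact 95% interval 9.25 to 13.7%) and 0 of 178 IHC (0%, up to 2.05%) had an Efna5 UMI; unthinned, the shares were 37.4% and 1.12%, at median depths of 6443 and 7484.5 UMIs. In PDC, at a median depth of 5705 UMIs, the thinned share was 0.308% and the unthinned share 1.54%. The intervals of the shares pool cells over libraries and do not cover the spread between libraries.

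Epha4 did not separate the hair cell types at P1. It was at 71.6, 96.6, 82.2 and 130 CPM in IHC and at 76.7, 108, 114 and 141 CPM in OHC, which overlapped, with a difference of -0.19 ± 0.16 (limma adjusted p = 0.52). Efnb2 (-0.73 ± 0.27, limma adjusted p = 0.0562) and Epha7 (0.60 ± 0.26, limma adjusted p = 0.126) did not pass either, though by limma Efnb2 did without Scrublet cells (adjusted p = 0.0428) and with coarser clusters (0.0213), and Epha7 did without Scrublet cells (0.0133). Of 4 members tested 1 was called, against 13.4% of all genes. Scrublet removal of doublets raised this to 3 and coarser clusters to 2. The called member, Efna5, reached the filter only through OHC, so the count says little about the members. Among the other family members Efna3, an A-class ligand, was lower in IHC at -1.57 ± 0.27 (limma adjusted p = 5.96e-06).

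The P1 OHC fell in 2 clusters that differed in Ocm, the gene of the calcium buffer oncomodulin, and in Neurod6, a transcription factor. In the cluster with 127 ± 61.6 CPM of Ocm and 37.6 ± 28.8 CPM of Neurod6 (SD, n = 4), Efna5 was at 107 ± 23.8 CPM and Epha4 at 142 ± 32.1 CPM. In the cluster with 23.5 ± 20.3 CPM of Ocm and 268 ± 55.6 CPM of Neurod6, Efna5 was at 81.0 ± 16.6 CPM and Epha4 at 77.0 ± 26.8 CPM. The ranges of both members overlapped between the clusters, from 86.7 to 135 against 58.5 to 94.5 CPM for Efna5 and from 96.9 to 173 against 48.7 to 112 CPM for Epha4, and the difference was not tested. Epha4 UMIs were seen in 18 of 93 thinned OHC that had an Efna5 UMI (19.4%) and in 13.9% of the others.

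At P7 the same comparison had 2 libraries. Efna5 was at 17.7 and 44.8 CPM in OHC and at 0 and 0 CPM in IHC, at least 6.96-fold higher in OHC by the pooled counts (floor of 3 UMIs over the 82 IHC); the fitted difference was -1.96 ± 0.50 (limma adjusted p = 0.00136). Efna1 was at 33.1 and 13 CPM in OHC and at 0 and 0 CPM in IHC, at least 5.48-fold higher, with a fitted -1.65 ± 0.51 (limma adjusted p = 0.0123). These 2 of 5 tested members were called, against 13.7% of all genes. The count says little about the members, since Ephb2, Ephb3, Ephb4 and Efnb1 were under the filter. Efna5 and Efna1, at 0 CPM in IHC, reached it only through OHC. Both genes came from few molecules, 33 and 26 UMIs over the 146 OHC, and the limma call of Efna1 was lost with 1 CPM added in place of 10 (adjusted p = 0.115) or without the library block (0.0666). Efna1 in P7 HC stood at 9.75 and 5.15% of its KO level, under the 21.6 and 14.0% of the KO marker list. The P7 OHC held 4507.5 to 6792.8 CPM of KO markers against 3514.1 to 4435.2 CPM in IHC, and 4905.2 and 3125.9 CPM of early response genes against 3685.9 and 1796.6 CPM; their part in the Efna1 difference was not tested. Epha4 (-0.04 ± 0.33, limma adjusted p = 0.961), Epha7 (1.01 ± 0.48, adjusted p = 0.166) and Efnb2 (-1.16 ± 0.45, adjusted p = 0.0681) did not pass, though by limma Efnb2 did with 1 CPM added (-1.91, adjusted p = 0.0493) and Epha7 with pooled UMIs (1.35, adjusted p = 0.0227). With 2 libraries and a block there was 1 residual degree of freedom. The errors in all E14 and P7 class comparisons thus rest almost wholly on the spread of the other genes. The P1 comparison of IHC with OHC had 3 residual degrees of freedom beside 62.6 drawn from the other genes. Its errors, and the small p of Efna5 there, thus rest mostly on those genes too.

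Hair cells at E16 and P7. At E16, when the supporting cells were LPsC, Efna5 was at 46.9, 47.9 and 37.1 CPM in HC and at 0, 7.28 and 14.1 CPM in LPsC (1.74 ± 0.33, limma adjusted p = 0.00113). Its E16 OHC were at 59.7, 61.4 and 44.8 CPM and its IHC at 0, 2.33 and 11.3 CPM, from 3 UMIs, and the pooled rate was 10.5 times higher in OHC (exact 95% interval of the counts 3.48 to 51.8). Efna1, Efnb2, Ephb4 and Ephb3 were lower in E16 HC. Efna1 was at 8.90, 5.41 and 8.62 CPM against 75.3, 72.8 and 85.5 CPM in LPsC (-2.32 ± 0.27, limma adjusted p = 1.11e-05). Efnb2 was at 13.7, 20.2 and 17.6 CPM against 55.7, 53.6 and 60.4 CPM (-1.30 ± 0.27, limma adjusted p = 0.00204). Neither pair of groups overlapped. Ephb4, a B-class receptor best known for its pairing with ephrin-B2 in vessels, differed by -1.30 ± 0.36 (limma adjusted p = 0.0142) and not past the threshold without replicate 1 (adjusted p = 0.0507). Ephb3, at 10.9, 7.60 and 5.98 CPM against 29.7, 25.7 and 25.4 CPM, differed by -1.03 ± 0.30 (limma adjusted p = 0.0191), a call lost in limma without replicate 2 (adjusted p = 0.109), without replicate 3 (0.117) or without the filter (0.0606). Epha4 (0.90 ± 0.33, limma adjusted p = 0.0595), Epha7 (0.30 ± 0.28, adjusted p = 0.485) and Efnb1 (-0.49 ± 0.32, adjusted p = 0.311) did not pass, though by limma Epha4 did with coarser clusters (0.84, adjusted p = 0.0291) and without replicate 3 (1.33, adjusted p = 0.0155). Of 8 members tested 5 were called, against 25.6% of all genes. Efna1 in HC lay under 10 CPM in all libraries, and Ephb3 in HC and Efna5 in LPsC did in most. These members reached the filter mainly through the other class, so the count says little about the members. Among the other family members Efna4 was at -1.75 ± 0.29 (limma adjusted p = 0.000294), Ephb6 at -1.57 ± 0.33 (adjusted p = 0.00214) and Epha5 at 1.31 ± 0.33 (adjusted p = 0.00769).

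At P7 Epha4 was at 67.2 and 84.4 CPM in HC and at 19.2 and 15.8 CPM in PDC (1.64 ± 0.34, limma adjusted p = 6.58e-06). Efna5 was at 11.1 and 29.4 CPM in HC and at 1.27 and 0 CPM, 1 UMI, in PDC; the pooled rate was 21.1 times higher (exact 95% interval of the counts 3.54 to 859) and the fitted difference 1.44 ± 0.38 (limma adjusted p = 0.000592). Efna1 was at 20.6 and 8.52 CPM in HC and at 181 and 91.8 CPM in PDC (-2.55 ± 0.32, limma adjusted p = 1.4e-14). The directions were those of P1. Efnb2 (-0.05 ± 0.36, limma adjusted p = 0.914), Ephb3 (-0.49 ± 0.39, adjusted p = 0.294) and Ephb4 (-0.41 ± 0.39, adjusted p = 0.385) did not pass. Of 6 members 3 were called, against 49.3% of all genes. Efna5, at 1.27 and 0 CPM in PDC, reached the filter only through HC. Over all 8960 genes 2448 were higher and 1969 lower in HC. Of 6 other family members tested, 4 were lower in HC and none was higher, among them Ephb6 at -2.32 ± 0.39 (limma adjusted p = 1.6e-08). Of 24 signalling genes 4 were higher and 8 lower.

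In hair cells the step that passed the test was E16 to P1 for Epha4 and P1 to P7 for Efna5; the 2 genes were not compared with each other. Epha4 in HC was at 49.2 and 25.7 CPM at E14, at 35.4, 38.4 and 24.2 CPM at E16, at 75.6 to 140 CPM at P1 and at 67.2 and 84.4 CPM at P7. The rise from E16 to P1 was 1.45 ± 0.25 on the log2 scale (limma adjusted p = 0.000444), beside a median of 0.11 over all genes, and the step to P7 was -0.43 ± 0.28 (limma adjusted p = 0.316). Efna5 in HC was at 2.34 and 15.5 CPM at E14, at 37.1 to 47.9 CPM at E16, at 63.5 to 91.6 CPM at P1 and at 11.1 and 29.4 CPM at P7. The E14 and later values come from different mixes of hair cell types, and no test was made of that step. From E16 to P1 the step was 0.66 ± 0.26 and did not pass (limma adjusted p = 0.085), though it did with gated cells (0.93, limma adjusted p = 0.0247), and Efna5 fell by 1.56 from P1 to P7 (SE 0.30, limma adjusted p = 0.000761); that call was lost without P7 replicate 4 (adjusted p = 0.0565). OHC were a smaller part of the P7 HC; within OHC the levels were 72.8 to 114 CPM at P1 and 17.7 and 44.8 CPM at P7, a step that was not tested. Epha7 (-0.75 ± 0.30, limma adjusted p = 0.085, then 0.03 ± 0.34, adjusted p = 0.968) and Efnb2 (0.11 ± 0.28, adjusted p = 0.824, then 0.39 ± 0.32, adjusted p = 0.431) passed at neither step. The first of these steps of Epha7 did pass with limma without Scrublet cells (-0.97, adjusted p = 0.0244), without E16 replicate 3 (-1.03, adjusted p = 0.0308) and without P1 replicate 1 (-0.98, adjusted p = 0.02). In each of the steps 1 of 4 members was called, against 19.8% of all genes from E16 to P1 and 20.8% from P1 to P7. Ephb1 fell at both steps, by 1.22 (SE 0.28, limma adjusted p = 0.00476) and by 1.44 (SE 0.32, adjusted p = 0.0027). The early response genes, which dissociation is known to induce, summed to 1029.6 to 1161.5 CPM in E16 HC, 644 to 2192.8 CPM in P1 HC and 4446.6 and 2667.9 CPM in P7 HC. Marker lists of other types also moved in HC. The neuron list summed to 210 to 340 CPM at E16 (6 markers), 613 to 825 CPM at P1 and 128 to 174 CPM at P7 (5 markers each). At these ages the glia list was at 26.7 to 60.9, 13.1 to 23.0 and 39.3 to 254 CPM. The mesenchyme list was at 3.88 to 18.9, 3.62 to 5.1 and 23.3 to 24.1 CPM. The part of all these genes in the steps was not tested.

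**Figure D2:**
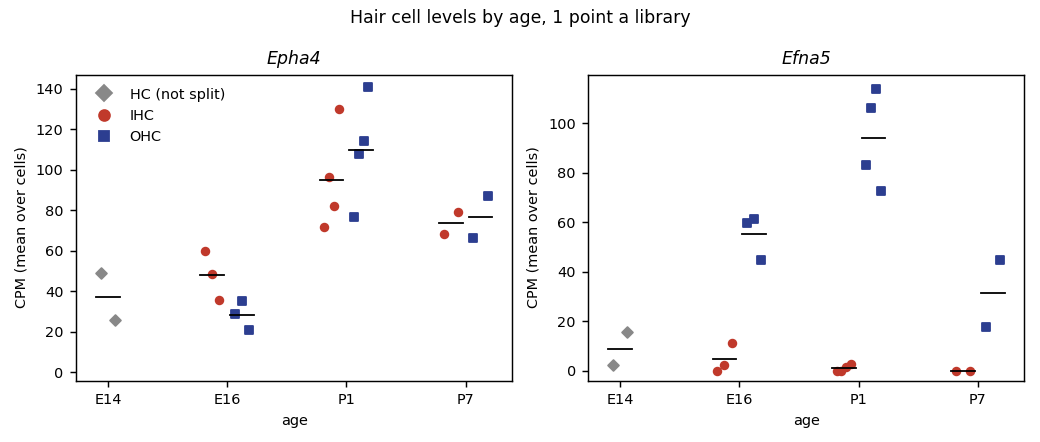
Levels of Epha4 and Efna5 (CPM, mean over cells) in hair cells by age; 1 point is 1 library and the line is the mean of the libraries. The E14 hair cells were not split, and scored as IHC. Efna5 stays at 0 to 11.3 CPM in IHC from E16 on, while OHC reach 72.8 to 114 CPM at P1 and 17.7 and 44.8 CPM at P7.

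Whether a class difference itself changed with age was tested after the data had been seen. The HC minus supporting cell difference of Epha4 was 1.53 ± 0.34 larger at P1 than at E16 (limma adjusted p = 0.00509), the 1 of 7 members called there, against 14.5% of all genes. From P1 to P7 it was smaller by 1.30 for Efna5 (-1.30 ± 0.42, limma adjusted p = 0.0357) and shifted up for Efnb2 (1.05 ± 0.34, adjusted p = 0.0336) and Epha7 (1.17 ± 0.35, adjusted p = 0.0251), 3 of 7 members against 19.8% of all genes. The supporting class was LPsC at E16 and PDC at P1 and P7, so the first test compares different supporting cells. The Epha7 value at P7 rested on 19 UMIs in HC and 2 in PDC. The IHC minus OHC differences did not change with age past the threshold for any of the 4 members by limma, against 1.60% of all genes called from E16 to P1 and 5.98% from P1 to P7; at an unadjusted p under 0.05 there were 2 and 1 members.

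Kölliker's organ against the lesser epithelial ridge. KO had more Epha7 than LER, and LER had more Efna1 and Efnb2 than KO, at each of the 3 ages tested. At P1 this was not a medial to lateral order of Efna1 over the duct. P1 IdC, at the medial edge, held 109 to 253 CPM of it, and IdC were not tested against LER. At E14 IdC held 50.1 and 33.4 CPM and at E16 39.7, 33.0 and 62.2 CPM. These embryonic IdC levels were close to KO and under LER of the same library. At P1 Epha7, a receptor for A-class ephrins, was at 184, 202, 261 and 197 CPM in KO and at 18.9, 5.07, 10.3 and 29.8 CPM in LER (3.17 ± 0.21, limma adjusted p = 3.54e-09). The lowest KO library was far above the highest LER library. In LER it stood at 2.51 to 15.1% of its KO level, under the 17.5 to 28.6% of the summed KO marker list, so expression in LER cells cannot be told from KO transcripts in these values. In P1 HC it was at 4.26 to 15.7% against 12.0 to 18.5% for the list, and in P1 PDC at 3.73 to 10.9% against 8.88 to 12.0%, with replicate 1 at 10.4 against 10.3%. In P7 HC it was above the list, at 40.7 and 54.0% against 21.6 and 14.0%. The KO level was by then 28.2 and 34.1 CPM, and the P7 HC held 19 Epha7 UMIs in all. From P1 to P7 Epha7 in HC did not change past the threshold.

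Efna1 was at 54.4, 157, 107 and 190 CPM in KO and at 93.1, 306, 192 and 241 CPM in LER at P1. The groups overlapped through LER replicate 1, yet each library had more in LER (-0.68 ± 0.13, limma adjusted p = 0.000652; without the library block 0.419). Efnb2 was at 13.9, 27.5, 18.9 and 36.3 CPM in KO and at 53.7, 50.5, 39.9 and 64.1 CPM in LER, with no overlap (-0.89 ± 0.19, limma adjusted p = 0.0016; with single cells gated by marker scores 0.218). Epha4 (-0.06 ± 0.24, limma adjusted p = 0.898), Ephb2 (-0.35 ± 0.24, adjusted p = 0.326), Ephb4 (-0.19 ± 0.19, adjusted p = 0.523) and Efnb1 (-0.23 ± 0.19, adjusted p = 0.447) did not pass. Of 7 members 3 were called, against 23.2% of all genes. Among other family members Efna3 was lower in KO (-1.03 ± 0.18, limma adjusted p = 0.000278) and Epha1 higher (0.70 ± 0.24, adjusted p = 0.0392); of 23 signalling genes 2 were higher and 6 lower, beside 788 higher and 1196 lower of all 8534 genes, with Sipa1l1 at -1.47 ± 0.16 (adjusted p = 1.49e-06) and Fyn, a Src-family kinase, at -1.16 ± 0.22 (adjusted p = 0.00061).

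At E16 the same 3 members were called of 7, against 15.0% of all genes. Epha7 was at 443, 385 and 290 CPM in KO and at 71.7, 140 and 50.8 CPM in LER (2.06 ± 0.17, limma adjusted p = 1.83e-06). Efna1 was at 33.6, 27.0 and 56.2 CPM in KO and at 84.2, 87.7 and 201 CPM in LER (-1.40 ± 0.17, limma adjusted p = 5.83e-05). Efnb2 was at 46.7, 38.1 and 24.8 CPM in KO and at 84.8, 95.6 and 47.6 CPM in LER (-0.87 ± 0.18, limma adjusted p = 0.0041). For Epha7 and Efna1 the groups did not overlap; for Efnb2 replicate 3 of LER came close to replicate 1 of KO. The limma call of Efnb2 was lost without replicate 2 (adjusted p = 0.0536) or without the library block (0.116). Epha4 (0.47 ± 0.21, limma adjusted p = 0.165), Ephb2 (-0.22 ± 0.23, adjusted p = 0.598), Ephb4 (-0.53 ± 0.26, adjusted p = 0.218) and Efnb1 (-0.46 ± 0.21, adjusted p = 0.18) did not pass, though by limma Epha4 did with coarser clusters (0.64, adjusted p = 0.0347) and with pooled UMIs (0.60, adjusted p = 0.029), and Efnb1 with pooled UMIs (-0.66, adjusted p = 0.0263).

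At E14 6 of 7 members were called, against 33.0% of all genes. Epha7 was at 308 and 305 CPM in KO and at 70.3 and 52.2 CPM in LER (2.16 ± 0.11, limma adjusted p = 5.08e-83). Epha4 was at 41.4 and 34.8 CPM in KO and at 17.3 and 24.1 CPM in LER (0.66 ± 0.17, limma adjusted p = 0.00075). Both receptors were thus higher in KO than in LER in each library. Efna1 was at 49.3 and 32.7 CPM in KO and at 217 and 241 CPM in LER (-2.25 ± 0.12, limma adjusted p = 5.24e-73). Efnb2 was at 39.9 and 17.9 CPM against 60.3 and 45.0 CPM (-0.74 ± 0.16, limma adjusted p = 3.65e-05), Efnb1, the X-linked transmembrane ligand, at 17.0 and 20.4 CPM against 40.6 and 25.8 CPM (-0.57 ± 0.17, adjusted p = 0.00479), and Ephb2, a B-class receptor, at 12.2 and 10.3 CPM against 24.1 and 17.9 CPM (-0.54 ± 0.18, adjusted p = 0.0113). Ephb4 did not pass (-0.13 ± 0.17, limma adjusted p = 0.613). These very small p-values come with the 1 residual degree of freedom already described, and without the library block 3 members were called, with limma adjusted p of 0.0812 for Efnb1, 0.0801 for Efnb2 and 0.0668 for Ephb2. The limma call of Ephb2 was also lost with coarser clusters (adjusted p = 0.0536), with gated cells (0.0585) and without the cell cycle clusters of KO (-0.46, adjusted p = 0.0736). At P7 LER held under 10 cells in each library and no comparison was made.

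**Figure D3:**
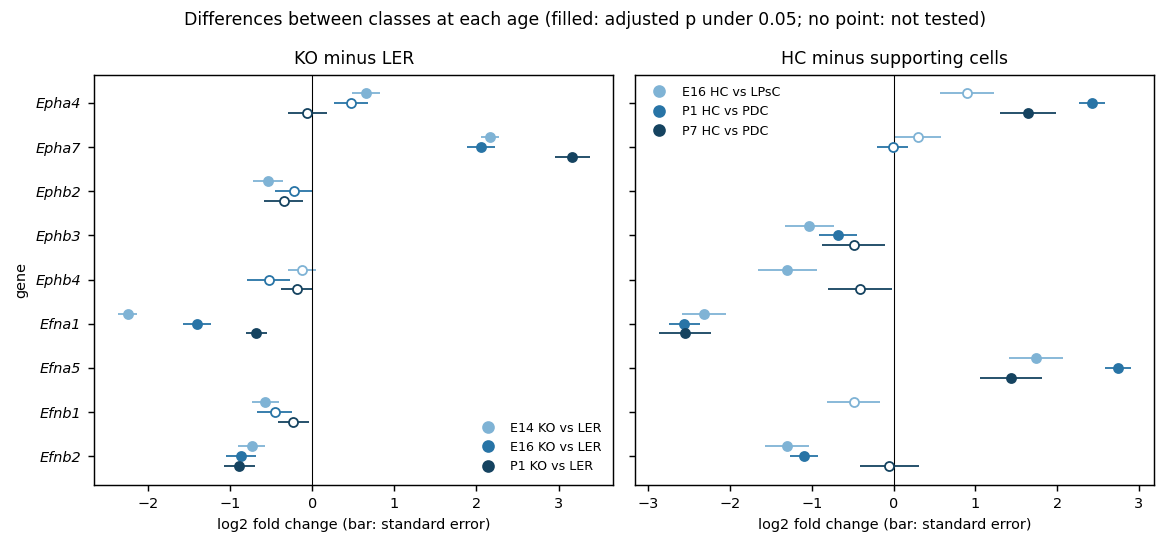
Log2 fold changes (x axis; bars are standard errors from limma) of each member between KO and LER at 3 ages and between hair cells and supporting cells at 3 ages; filled points passed an adjusted p of 0.05 and members under the filter have no point. Epha7 lies at 2.06 to 3.17 and Efna1 at -2.25 to -0.68 in KO minus LER, and Efna1 at -2.56 to -2.32 in HC minus supporting cells.

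The KO minus LER difference of Efna1 was 1.57 ± 0.23 nearer to 0 at P1 than at E14 (limma adjusted p = 0.000197), the 1 member of 7 called in that test, against 6.83% of all genes. Neither single step called a member by limma, against 0.797% of all genes from E14 to E16 and 2.74% from E16 to P1; at an unadjusted p under 0.05 there were 1 and 2 members, Efna1 in both and Epha7 in the second (1.11 ± 0.30, adjusted p = 0.0575). Efna1 in LER was at 217 and 241 CPM at E14, 84.2 to 201 CPM at E16 and 93.1 to 306 CPM at P1, while KO went from 32.7 and 49.3 CPM to 54.4 to 190 CPM. The LER of E14 had no HeC, and HeC held less Efna1 than CC/OSC in each library of E16 and P1 (mean 67.2 against 135 CPM at E16 and 181 against 267 CPM at P1). The part of this change in LER make-up was not tested.

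Kölliker's organ over age. Epha7 in KO was at 308 and 305 CPM at E14, at 443, 385 and 290 CPM at E16, at 184, 202, 261 and 197 CPM at P1 and at 28.2 and 34.1 CPM at P7. It fell by 0.78 from E16 to P1 (SE 0.18, limma adjusted p = 0.0136), with no overlap, and by 2.42 from P1 to P7 (SE 0.21, adjusted p = 1.85e-06). P7 KO held no medial cluster; within lateral KO, where the step was not tested, Epha7 was at 201, 222, 287 and 222 CPM at P1 and at 28.7 and 38.3 CPM at P7. Markers of other types moved in KO between P1 and P7: summed, the LER list went from 92.8 to 248 CPM at P1 to 386 to 529 CPM at P7, the mesenchyme list from 10.4 to 35.7 to 111 to 149 CPM, the PDC list from 74.5 to 166 to 230 to 264 CPM and the endothelium list from 6.07 to 44.0 to 76.5 to 79.3 CPM, while the HC, glia and neuron lists were lower at P7 and the KO list was at 17421.2 to 29564.6 CPM and then 27352.1 to 29827.0 CPM; their part in the P7 values of KO was not tested. The thinned share of KO cells with an Epha7 UMI went from 25.5% at P1 (exact 95% interval 24.6 to 26.5%) to 4.77% at P7 (3.79 to 5.93%). The unthinned share went from 53.6% to 11.7%. The intervals pool the cells of all libraries and do not cover the spread between libraries. Epha4 in KO was at 39.5, 43.4 and 47.1 CPM at E16, at 11.1, 18.1, 10.8 and 20.8 CPM at P1 and at 3.58 and 3.10 CPM at P7. It fell by 1.10 (SE 0.18, limma adjusted p = 0.00139) and then by 0.90 (SE 0.20, adjusted p = 0.00499), while it rose in HC over the first of these steps. At P1 the KO level was 10.1 to 17.1% of the HC level, above the 0.627 to 1.12% of the hair cell marker list.

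Efna1 in KO moved the other way, from 33.6, 27.0 and 56.2 CPM at E16 to 54.4, 157, 107 and 190 CPM at P1 (1.41 ± 0.33, limma adjusted p = 0.0152), and P7 stood at 212 and 165 CPM (0.65 ± 0.38, adjusted p = 0.242). Within clusters of 1 name, steps that were not tested, medial KO went from 35.6, 26.9 and 53.0 CPM at E16 to 63.5, 193, 131 and 223 CPM at P1, and lateral KO from 39.2, 67.8, 48.9 and 117 CPM at P1 to 243 and 175 CPM at P7, with no overlap in either. In KO as a whole the E16 and P1 ranges of Efna1 overlapped through P1 replicate 1 and E16 replicate 3. Between these ages the summed LER list in KO went from 45.7 to 51.1 CPM to 92.8 to 248 CPM. The neuron list went from 19.6 to 31.2 CPM (6 markers) to 77.3 to 329 CPM (5 markers), and the glia list fell from 148 to 219 CPM to 104 to 130 CPM. The part of these markers in the step was not tested. The limma calls of Efna1 and Epha7 from E16 to P1 were lost without E16 replicate 1 (adjusted p = 0.0805 and 0.0883) or E16 replicate 2 (0.0869 and 0.0716), and that of Epha4 from P1 to P7 without P7 replicate 4 (0.0534) or 5 (0.065). From E14 to E16 none of the 7 members was called by limma, and none had an unadjusted p under 0.05, against 9.22% of all genes; the median of all genes there was -0.17, and the members ran from -0.09 ± 0.40 for Efna1 to 0.30 ± 0.18 for Efnb1, with Epha4 at 0.15, Epha7 at 0.25, Ephb2 at 0.23, Ephb4 at 0.04 and Efnb2 at 0.29. The counts were 3 of 7 from E16 to P1, against 12.1% of all genes, and 2 of 7 from P1 to P7, against 24.4%. From E16 to P1 Ephb2 (-0.45 ± 0.18), Ephb4 (0.06 ± 0.19), Efnb2 (-0.46 ± 0.27) and Efnb1 (-0.33 ± 0.15) did not pass, and from P1 to P7 they did not either (-0.18, 0.26, -0.08 and -0.39). By limma Ephb2 passed at the first step without E16 replicate 3 (-0.64, adjusted p = 0.0246) and Efnb1 at the second with pooled UMIs (-0.47, adjusted p = 0.0461). From P1 to P7 the other A-class ephrins Efna4 and Efna3 fell by 1.88 (SE 0.20, limma adjusted p = 1.7e-05) and 1.49 (SE 0.31, adjusted p = 0.00302).

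Early response genes moved with Efna1 in KO in part. Their sum in KO was 2474.2 CPM in P1 replicate 1, which had the lowest Efna1, and 4016.2 to 4527.3 CPM in the other 3 P1 libraries. It was 2704.9 to 3539.5 CPM at E16 and 7450.1 and 5748.5 CPM at P7, but 5799.1 and 4576.4 CPM at E14, where Efna1 was at 49.3 and 32.7 CPM. Outside KO, P1 replicate 1 also had the lowest Efna1 in LER, HC, IdC and PDC. Its early response sum was the lowest in LER (2556.5 CPM) and HC (644 CPM) but the highest in IdC (8761.9 CPM) and PDC (2105.3 CPM). The part of these genes in the age steps was not tested.

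**Figure D4:**
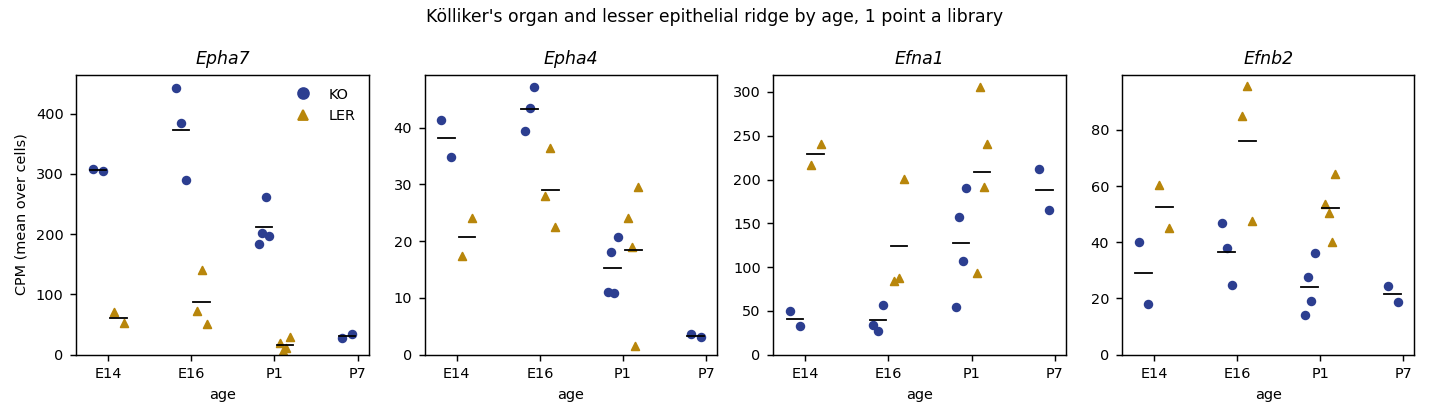
Levels (CPM, mean over cells, axes from 0) of Epha7, Epha4, Efna1 and Efnb2 in KO (circles) and LER (triangles) by age; 1 point is 1 library and the line is the mean. Epha7 in KO drops from 290 to 443 CPM at E16 to 28.2 and 34.1 CPM at P7, and Efna1 in LER lies at 217 and 241 CPM at E14 against 32.7 and 49.3 CPM in KO. No LER level is drawn at P7.

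Regions within Kölliker's organ at P1. Efna1 was at 63.5, 193, 131 and 223 CPM in medial KO and at 39.2, 67.8, 48.9 and 117 CPM in lateral KO, higher in the medial part of every library (1.02 ± 0.11, limma adjusted p = 4.11e-06; without the library block 0.312). The ranges overlapped, with medial replicate 1 under lateral replicates 2 and 4. Early response genes went the other way, at 2168.2 to 4301.5 CPM in medial and 3100.2 to 5091.8 CPM in lateral KO. Medial KO also held more of the IdC list (398 to 562 against 161 to 186 CPM) and the LER list (108 to 319 against 34.5 to 84.6 CPM). The neuron list was higher there too (109 to 496 against 14.6 to 52.2 CPM), and the PDC list was lower (45.4 to 110 against 174 to 371 CPM). The part of these markers in the Efna1 difference was not tested. Epha7 was at 180, 198, 254 and 191 CPM in medial and at 201, 222, 287 and 222 CPM in lateral KO (-0.17 ± 0.06, limma adjusted p = 0.0354), lower in the medial part of all 4 libraries, but leaving out any 1 library (limma adjusted p = 0.055 to 0.117) or the library block lost the call. Without the lateral cluster with haemoglobin genes the difference was -0.04 (limma adjusted p = 0.769). With gated cells, where 43.6% of the P1 lateral KO cells kept their name, the difference was -0.07 (limma adjusted p = 0.589), and without the filter the adjusted p was 0.0549. Ephb4 (0.29 ± 0.11, limma adjusted p = 0.0518, but 0.0336 with pooled UMIs), Efnb1 (0.16 ± 0.10, adjusted p = 0.266), Epha4 (0.05 ± 0.12, adjusted p = 0.761) and Efnb2 (0.03 ± 0.11, adjusted p = 0.851) did not pass. Of 6 members 2 were called, against 31.4% of all genes, and without the block none was. Efna4 was also higher in medial KO (0.97 ± 0.11, limma adjusted p = 5.11e-06), and Sdc2, a syndecan that EphB receptors phosphorylate, was lower (-0.69 ± 0.08, adjusted p = 8.88e-06).

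Interdental cells, at the medial edge, had more Efna1 than KO in all 4 libraries and more Epha7 in 3 of 4. Efna1 was at 109, 227, 196 and 253 CPM in IdC, above the KO level of the same library in all 4 (0.65 ± 0.12, limma adjusted p = 0.000825; without the library block 0.435). Epha7 was at 335, 300, 258 and 326 CPM, above KO in 3 of 4 libraries and just under it in replicate 3 (0.51 ± 0.13, limma adjusted p = 0.00969); without replicate 2 or replicate 4 the limma adjusted p was 0.0532 or 0.0501, without the library block 0.168, with coarser clusters 0.0608 and without the filter 0.116. A medial KO cluster of 525 cells reached 296 ± 71.5 CPM of Epha7 (SD, n = 4), against 305 ± 34.4 CPM in IdC. The highest P1 cluster, at 328 ± 36.1 CPM, was an unnamed one of 699 cells that entered no comparison. Its IdC score of 1.14 was under the cut of 1.2. Epha4 (0.33 ± 0.18, limma adjusted p = 0.206, but 0.031 with pooled UMIs), Ephb4 (0.09 ± 0.17, adjusted p = 0.748), Efnb2 (-0.07 ± 0.19, adjusted p = 0.823) and Efnb1 (0.03 ± 0.17, adjusted p = 0.921) did not pass. Of 6 members 2 were called, against 22.6% of all genes, and without the library block none was. Epha2, a receptor with Efna1 among its ligands, was higher in IdC (1.32 ± 0.19, limma adjusted p = 0.00012), and Efna3 was lower (-0.85 ± 0.18, adjusted p = 0.00352).

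Lateral prosensory cells at E14 differed from KO most in Epha7, at 31.7 and 34.5 CPM against 308 and 305 CPM (-2.88 ± 0.21, limma adjusted p = 3.1e-40). Efna1 was at 104 and 61.0 CPM in LPsC and at 49.3 and 32.7 CPM in KO (0.84 ± 0.26, limma adjusted p = 0.00943), and Ephb3 was at 27.1 and 16.2 CPM against 8.52 and 4.03 CPM (0.95 ± 0.36, adjusted p = 0.0485). Each of these differences had the same direction in the 2 libraries, though Ephb3 in LPsC rested on 12 and 5 UMIs. Without the library block the limma adjusted p was 0.149 for Efna1 and 0.118 for Ephb3. The limma call of Ephb3 was also lost without the filter (adjusted p = 0.19), with 1 CPM added (0.0645) and without the cell cycle clusters of KO (0.90, adjusted p = 0.0933). Epha4 (-0.84 ± 0.32, limma adjusted p = 0.0513), Ephb2 (0.02 ± 0.36), Ephb4 (-0.04 ± 0.33), Efnb2 (0.12 ± 0.31) and Efnb1 (-0.03 ± 0.34) did not pass. Epha4 did pass with limma with pooled UMIs (-0.94, adjusted p = 0.00626), with gated cells (-1.06, adjusted p = 0.00932) and without the cell cycle clusters of KO (-1.03, adjusted p = 0.0145). Of 8 members 3 were called, against 16.4% of all genes. Ephb3, at 8.52 and 4.03 CPM in KO, reached the filter through LPsC, which weakens the count. Ephb1, a B-class receptor outside the 9, was higher in LPsC (2.60 ± 0.29, limma adjusted p = 8.98e-18).

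Glia at P7 were 100 cells, 23 and 77 in the 2 libraries, with 51662.9 to 56175.6 CPM of 10 glial markers summed, 100 to 207 CPM of 5 neuronal markers and 1145.3 to 1970.4 CPM of KO markers. Other lists also stood higher in glia than in the epithelium, at 2072.5 to 2641.4 against 250 to 290 CPM for IdC, 658 to 894 against 93.2 to 119 CPM for mesenchyme and 1501.7 to 1618.6 against 940 to 942 CPM for PDC, and their part in the differences was not tested. Among them was a cluster of 20 cells led by Mt3, with the neurofilament genes Nefl and Nefh and the myelin gene Mbp among its top 10 genes. Of the 61 and 21 UMIs of neuronal markers in the 2 libraries, 0 and 1 lay outside it. Efna1 was at 29.3 and 0 CPM, 3 UMIs, in glia and at 188 and 138 CPM in the duct epithelium; the pooled rate was 21.0 times lower in glia (exact 95% interval of the counts 7.16 to 102) and the fitted difference -3.11 ± 0.47 (limma adjusted p = 4.5e-07). Of 8 members tested it was the 1 called, against 24.4% of all genes. The 3 Efna1 UMIs all came from that cluster: without it, a setting chosen after seeing the data, glia held 19 and 61 cells and no Efna1 UMI, and Efna1 was still the 1 member called (-4.10, limma adjusted p = 6.12e-06; a fit on 0 UMIs depends on the pseudocount and is no bound). Ephb2 was at 34.1 and 31.8 CPM, above every P7 epithelial class by its mean, but came from 3 and 8 UMIs and did not pass (1.43 ± 0.57, limma adjusted p = 0.0617). Without the cluster it was at 25.6 and 19.9 CPM (1.03, limma adjusted p = 0.254). Efnb1 (0.87 ± 0.59, limma adjusted p = 0.314), Epha4 (0.45 ± 0.57, adjusted p = 0.641), Ephb3 (-0.46 ± 0.60, adjusted p = 0.646), Ephb4 (-1.22 ± 0.58, adjusted p = 0.124), Epha7 (-1.24 ± 0.59, adjusted p = 0.124) and Efnb2 (-1.35 ± 0.59, adjusted p = 0.094) did not pass. With limma Epha7 (-1.59, adjusted p = 0.0138) and Efnb2 (-1.28, adjusted p = 0.0495) passed with gated cells, and Ephb2 without the library block (adjusted p = 0.0434). Ephb6 was higher in glia (3.21 ± 0.47, limma adjusted p = 2.83e-07), as was Fyn (3.27 ± 0.52, adjusted p = 1.42e-06).

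The genes most like each member over the 44 class and library points of P1, among 9122 genes and measured by Pearson's r on log2(CPM + 10), are given as a description only, since the points share libraries and cells. For Epha4 they were Slc38a1 (r = 0.88), Purb and Ptpn3 (both 0.83), and for Epha7 Clic6 (0.93), Tmem132c and Rgcc (both 0.91). For Efna5 they were Neurod6 (0.85), Mpc1 (0.78) and Mslnl (0.76), and for Efna1 Cldn4, Krt18 and Klf6 (all 0.92). Ephb4 was most like Tmed10, Rab34 and Erbb3 (all 0.84), Efnb1 like Pfn2 (0.81), Wls and Ikzf2 (both 0.76), Efnb2 like Bcar3, Zfp64 and Mtdh (all 0.72), and Ephb3 like Trak1 and Rit1 (both 0.64) and Rdh10 (0.63). Ephb2 was under the filter. Rgcc was among the markers used to name KO, Neurod6 and Ikzf2 among those for OHC and Erbb3 among those for glia.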

How the data were processed

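The deposited tables held 1 natural log value per gene and cell, ln(1 + x), with x the UMIs of that gene scaled to a total of 10000 per cell, which the authors made from Cell Ranger 2.1.1 counts on mm10 with Seurat 2.0. UMIs were recovered from these values, whole within 2%, and turned into CPM; since the unit is a log value, no count model was used. Cells were clustered per age without the Eph, ephrin and signalling genes (scanpy 1.11.5, 2000 variable genes, 30 components, 20 neighbours, leidenalg 0.10.2 at resolution 2, seed 1), and clusters were named from markers by score thresholds set after the clusters were seen; 28 of 99 stayed unnamed. Scrublet marked 215 cells (0.0355 to 2.59% of a library), which were kept and removed as an alternative. Mean CPM per class and library with at least 10 cells was tested as log2(CPM + 10) with limma 3.58.1 in R 4.3.3. The library was a block between classes, and there was no block between ages. The limma fit between classes was tried on simulated data, for HC against PDC at P1 and P7 only. The fits between ages and of class differences across ages were not tried in this way. All 9 members are named in every comparison that tested them. Intervals and floors of 3 UMIs cover counting error only. The members and lists were chosen with earlier results of these data known, and the marker lists come partly from the study. The tests of age differences in class differences, the early response genes and the count ratios were added after the data were seen. The authors had left out cells with a high share of stress genes, so the early response sums come from cells already filtered. P7 KO against LER was not run, with under 10 LER cells in each library.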

Additional observations from a re-analysis of the deposited data

Results flagged for a closer look

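In 12 of 81 sets of 4 P1 libraries, 1 per member and class, the highest or lowest library lay apart from the rest past Dixon's critical value for 4 samples at the 95% level; chance gives about 1 in 20, and the sets overlap, since OHC are part of HC and medial and lateral KO part of KO. Replicate 4 was the one apart in 8 sets. In HC it had 39.3 CPM of Efnb2 and 7.6 CPM of Efnb1, in PDC 22.5 CPM of Epha4, in KO 36.0 CPM of Ephb4 and 12.6 CPM of Ephb3, in medial KO 38.2 and 15.0 CPM of the same receptors, and in IdC 20.7 CPM of Ephb3. Replicate 1 had 29.0 CPM of Epha7 in HC and 23.7 CPM in OHC. Replicate 2 had 36.4 CPM of Epha4 in IdC and 6.34 CPM of Ephb2 in lateral KO, the latter as the lowest library. What sets these libraries apart was not tested.

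Differences between classes changed with age, by limma on the difference itself, in 5 cases, in tests added after the data were seen. The KO minus LER difference of Efna1 was 1.57 higher at P1 than at E14, 1 of 7 members against 6.83% of all genes. The HC minus supporting cell difference was 1.53 higher for Epha4 at P1 than at E16, 1 of 7 against 14.5%. Its supporting cells were LPsC at E16 and PDC at P1. Between P1 and P7 that difference changed by 1.17 for Epha7, 1.05 for Efnb2 and -1.3 for Efna5, 3 of 7 against 19.8%. The Epha7 value at P7 rested on 19 UMIs in HC and 2 in PDC. The other tests of this kind called no member.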

How the results depend on the processing

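No result past the threshold changed direction under any alternative run. Over 107 results on single members and 1320 alternative values, 1230 stayed on the same side of the threshold or, where there was no test, within the spread, 47 lost a call, 24 gained one and 19 without a test moved by more than the spread. The number of members called changed by more than 1.5 times as follows. For IHC against OHC at P1 it was 2 with coarser clusters and 3 without Scrublet cells, in place of 1. For medial against lateral KO it was 1 without the filter, 1 without the KO clusters with haemoglobin or cell cycle genes, 1 with gated cells and 0 without the replicate block, in place of 2. For IdC against KO it was 1 without the filter, 1 with coarser clusters and 0 without the block, in place of 2. Without the block it was also 1 in place of 2 for IHC against OHC at P7, 2 in place of 1 for glia, 3 in place of 6 for E14 KO against LER, and 1 in place of 3 for E14 LPsC against KO. With gated cells it was 3 for glia and 2, in place of 1, for HC from E16 to P1, where removing Scrublet cells also gave 2. For E16 KO against LER pooled UMIs gave 5 in place of 3. Leaving out 1 library gave 1 in each case for medial against lateral KO, 1 to 2 for IdC against KO, 1 to 4 for KO from E16 to P1, 1 to 3 for KO from P1 to P7, 1 to 2 for HC from E16 to P1 and 0 to 1 for HC from P1 to P7. Across ages the libraries share only a number: deviations of same-numbered libraries correlated at -0.24 to 0.08, and a replicate block over ages left the counts at 0, 3, 2, 1 and 1. Coarser clusters gave no value for glia or for E14 LPsC. Leaving out 1 library of 2 gives values with no test. The causes were not tested.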

Other observations

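Cells of the roof of the duct entered no comparison. At P1 they also held 1854.7 to 2398.1 CPM of interdental markers and 235 to 583 CPM of mesenchyme markers, and their Efna5 was 22.9 ± 6.49 CPM, Epha7 137 ± 50.1 CPM, Efna1 184 ± 70.3 CPM and Ephb4 40.1 ± 18.1 CPM (SD, n = 4, 182 cells). At E16 their Epha4 was 113 ± 47.3 CPM and Epha7 255 ± 62.9 CPM (n = 3). Inner phalangeal cells at P1 had 77.8 ± 28.2 CPM of Epha7 and 26.9 ± 11.5 CPM of Efnb1. The 38 mesenchyme cells at P7 had 70.8 ± 40.3 CPM of Ephb4 (n = 2). None of these levels was tested.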
